A study of Rattus norvegicus and Mus musculus with 251 samples.

Results

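A set of 10 genes that mark inhibitory interneurons, out of the 46078 gene rows in the mouse count table, was followed across prefrontal cortex (PFC) and nucleus accumbens (NAc) in mice that drank saline or morphine. They were the neuropeptide genes Sst, Cort, Npy, Vip and Cck, the calcium-binding protein genes Pvalb and Calb2, and the enzyme genes Nos1, Gad1 and Gad2. Each was found by its symbol, matched to the Ensembl identifier of its row, and 10 of 10 passed the filter on low counts. The rule that picks them uses their names and no measured value, although earlier results of these data were known when they were proposed. The mice were C57BL/6J of both sexes, given saline solution or morphine solution to drink. Their brains were taken under chronic morphine, 24 h after it or 2 weeks after it, and RNA came from tissue punches 0.5 mm wide. How long the morphine lasted and the age of the mice were not given in the sources used here. PFC had 6 libraries from saline mice (3 female, 3 male), 8 under chronic morphine (3 female, 5 male), 9 at 24 h (4 female, 5 male) and 7 at 2 weeks (3 female, 4 male). NAc had 7 saline libraries (3 female, 4 male), 8 under chronic morphine (3 female, 5 male), 9 at 24 h (4 female, 5 male) and 8 at 2 weeks (3 female, 5 male). The labels do not say whether libraries of a group came from separate animals, so p-values measure the spread between these libraries.

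Interneurons release GABA onto nearby cells and are sorted into classes by the peptides and calcium-binding proteins they contain. In cortex the classes marked by parvalbumin, somatostatin and vasoactive intestinal peptide contact the cell body, the dendrites and other interneurons, respectively, and cholecystokinin is made both by some interneurons and by excitatory cells. In the striatum, to which the NAc belongs, interneurons are a minority among GABA-releasing projection neurons, which also use the glutamate decarboxylases Gad1 and Gad2. A striatal class contains somatostatin, neuropeptide Y and nitric oxide synthase together, and others contain parvalbumin or calretinin.

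Sst encodes the precursor of somatostatin and Cort that of cortistatin, peptides whose ends are so alike that cortistatin binds the somatostatin receptors. The last 42 coding bases of each gene, 14 codons just before the stop codon in exon 2 of 2, show this likeness. They lie at chr16:23889732-23889773 for Sst and chr4:149125267-149125308 for Cort, both on the minus strand (GRCm38, GENCODE M21 annotation). Both are written 5′ to 3′, and capitals mark bases that are identical when the sequences are aligned with an offset of 1 codon.
Sst: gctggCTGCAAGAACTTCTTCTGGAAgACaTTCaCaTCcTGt
Cort: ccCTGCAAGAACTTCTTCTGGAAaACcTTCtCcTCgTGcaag
Of 39 aligned bases, 31 were identical (79.5%), and 11 of 13 aligned codons encoded the same residue. The genes that share this end differed widely in level.

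Levels are given in CPM, counts scaled to the library's total, or as log2 CPM. Library totals ran from 5182601 to 41532464 gene counts in PFC and from 22387525 to 43963295 in NAc. The lowest was PFC library 10 (2 weeks, female), the next lowest in PFC having 24936879. That library detected 10563 genes, left 21.1% of its reads unaligned and had a median correlation with the other PFC libraries of 0.857, so results that rest on it are also given without it. The libraries numbered 27, labelled female, had a summed level of 4 Y-linked genes of 87.6 CPM in PFC and 134.8 in NAc with Xist at 0 and 1.03, against at most 1.61 for the Y-linked genes in the other 24 libraries labelled female. The main fits and the permutations kept the libraries numbered 27 as female, as labelled. The labels call the material neurons, but Mbp, a marker of oligodendrocytes, ran from 1588 to 5543 CPM, so the punches held other cells as well. In such tissue, fewer cells of a type and less RNA per cell cannot be told apart. Summed markers of striatal projection neurons (9 genes) ranged from 444 to 8813 CPM among NAc libraries, and those of cortical excitatory neurons (5 genes) from 1699 to 4225 CPM among PFC libraries. Slc17a6, the glutamate transporter of many subcortical neurons, ranged from 0.949 to 172.8 CPM in NAc.

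Compared per kilobase of exon, which allows different genes to be ranked, Sst was the leading gene of both regions by its median level. In PFC, Sst had a median of 238 CPM per kilobase and Cck one of 234, with overlapping quartile ranges (218 to 260 and 209 to 255). Npy followed at 117.6, then Pvalb at 65.2 and Gad1 at 53, whose quartile ranges overlapped, and Gad2 at 25.8. Vip (10.3), Calb2 (7.0) and Cort (6.79) came next, with quartile ranges that overlapped from each to the next, and Nos1 was lowest at 3.18. In NAc, Sst stood at 306 CPM per kilobase, above Gad2 at 143.5 and Gad1 at 100.5. Npy, at 83.8, overlapped Gad1 in its quartile range. Calb2 (34) and Pvalb (10.7) overlapped each other, and Pvalb also overlapped Nos1 (8.64) and Cck (7.07). Cort (0.93) and Vip (0.79) were last and overlapped. Per length of a coding transcript in place of all exons, Cck ranked above Sst in PFC, and Gad1 above Npy and Pvalb there. In NAc, Gad1 then ranked above Gad2, Cck above Pvalb and Nos1, and Vip above Cort.

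**Figure D1:**
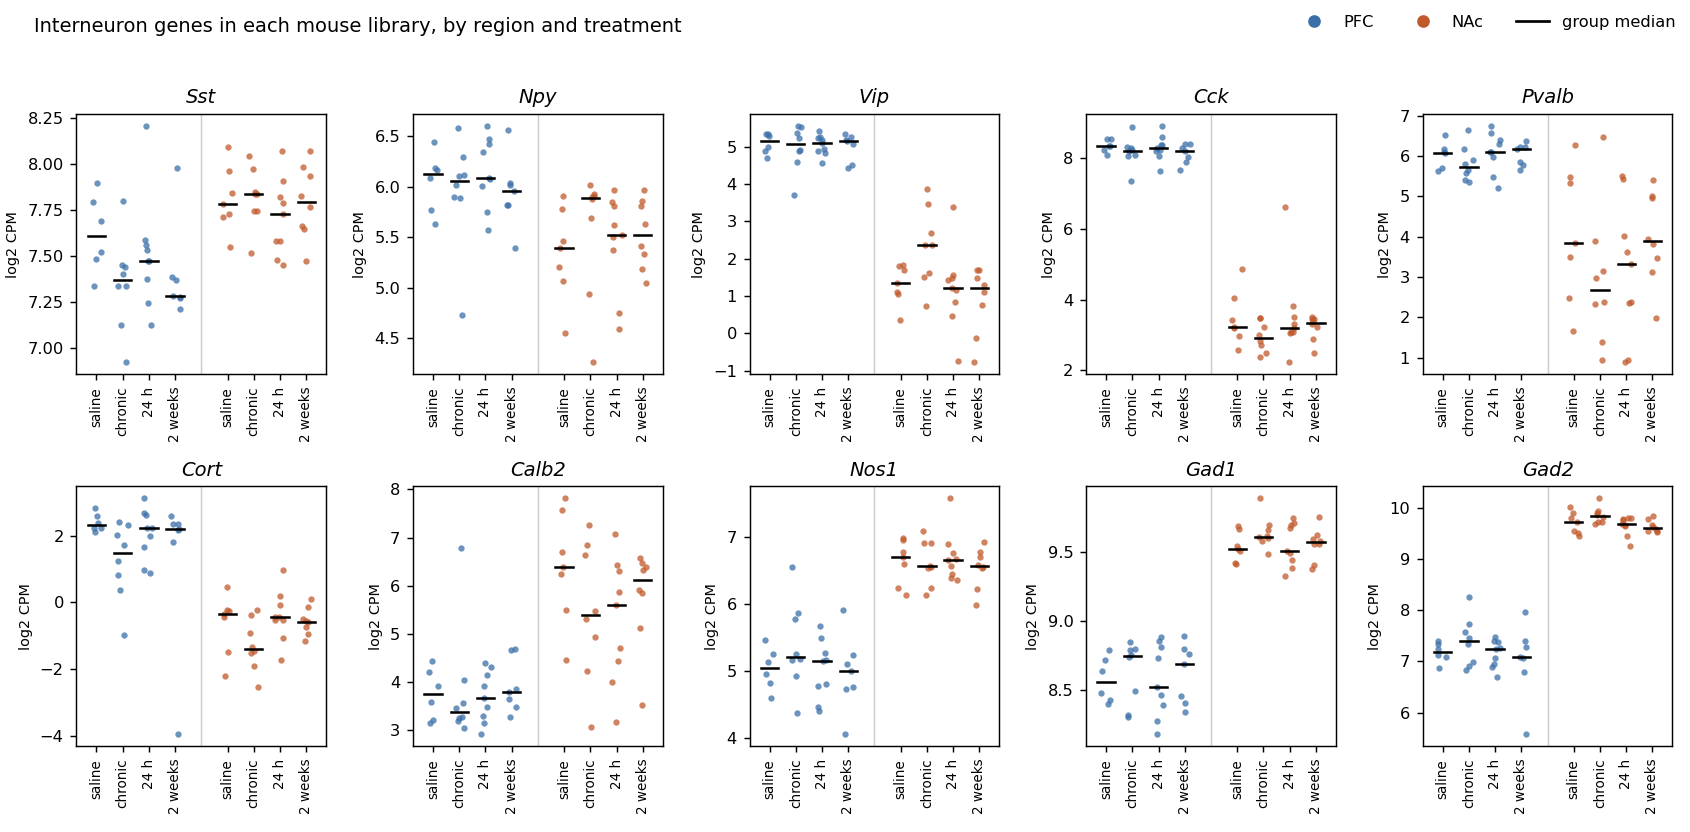
Level of each of the 10 genes in every mouse library, in log2 CPM on the vertical axis, grouped by treatment on the horizontal axis with PFC in blue and NAc in orange; horizontal bars are group medians, and each panel has its own vertical scale. Cck, Gad1 and Gad2 separate the regions without overlap, while treatment groups overlap within each region. The share of all genes that separate the regions in this way was not computed.

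The first comparison asked how these genes differ between the regions, averaged over treatments and sexes. All 10 were called by edgeR at an adjusted p under 0.05, 5 higher in NAc and 5 lower, beside 66.2% of all 19266 genes tested. The sizes spread from 1.24-fold for Sst to 27.2-fold for Cck. Among saline libraries alone 8 of 10 were called (35.8% of all genes), and those not called were Sst, at 0.21 on the log2 scale (edgeR adjusted p = 0.188), and Pvalb, at -1.23 (edgeR adjusted p = 0.119).

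Of the peptides, Sst (ENSMUSG00000004366, chromosome 16, 23889573 to 23890958, minus strand) differed least. Its level ran from 121.3 to 295.3 CPM in PFC with a median of 171.4, and from 174.98 to 272.4 CPM in NAc with a median of 220. The ranges overlapped, and the log2 fold change of NAc from PFC was 0.32 ± 0.06 (SE, edgeR adjusted p = 2.91e-06). Cort (ENSMUSG00000028971, chromosome 4, 149125034 to 149126763, minus strand) had a median of 4.6 CPM in PFC and 0.629 in NAc. It was the rarest member in counts, and its log2 fold change was -2.66 ± 0.21 (SE, edgeR adjusted p = 2.66e-16). PFC library 10 held 0 Cort counts, which at its depth allows up to 0.580 CPM, a limit that covers counting error only.

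Npy (ENSMUSG00000029819, chromosome 6, 49822710 to 49829507, plus strand), the precursor of neuropeptide Y, was lower in NAc, with medians of 66.6 CPM in PFC and 47.4 in NAc. Its log2 fold change was -0.52 ± 0.10 (SE, edgeR adjusted p = 1.6e-05), a direction opposite to that of Sst. Vip (ENSMUSG00000019772, chromosome 10, 5639218 to 5647617, plus strand), which encodes vasoactive intestinal peptide, ranged from 13.1 to 46.8 CPM in PFC and from 0.521 to 14.6 in NAc. Medians of 34.9 and 2.69 CPM gave a log2 fold change of -3.43 ± 0.20 (SE; adjusted p = 6.61e-21, edgeR), and the ranges overlapped at their ends. Cck (ENSMUSG00000032532, chromosome 9, 121489824 to 121495694, minus strand), the cholecystokinin gene, showed the widest gap, from a median of 306 CPM in PFC to 9.23 in NAc. The lowest PFC library, at 164.4 CPM, was above the highest NAc library, at 98.2. Its log2 fold change was -4.77 ± 0.21 (SE, edgeR adjusted p = 2.23e-25).

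The calcium-binding proteins moved in opposite directions. Pvalb (ENSMUSG00000005716, chromosome 15, 78191114 to 78206400, minus strand), which encodes parvalbumin of fast-spiking interneurons, had medians of 67.9 CPM in PFC and 11.1 in NAc and a log2 fold change of -1.78 ± 0.30 (SE; adjusted p = 8.84e-07, edgeR). It was tight in PFC, 37 to 107.4 CPM, and wide in NAc, 1.78 to 89.5 CPM, so that some NAc libraries lay within the PFC range. The highest NAc value was that of library 25 (chronic morphine, female). Its striatal markers summed to 499 CPM and 4 hypothalamic marker genes to 440 CPM, against NAc medians of 3751 and 17.7. Calb2 (ENSMUSG00000003657, chromosome 8, 110137502 to 110168210, minus strand), the calretinin gene, had medians of 12.2 CPM in PFC and 59.3 in NAc and a log2 fold change of 2.04 ± 0.26 (SE; adjusted p = 1.39e-09, edgeR). Its NAc libraries ran from 8.35 to 225 CPM, and 1 PFC library, number 25 (chronic morphine, female), reached 109.3 CPM. The highest NAc value was that of library 6 (saline, male), with striatal markers at 444 CPM and the hypothalamic ones at 203 CPM. What part such libraries had in the NAc ranges was not tested.

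All 3 enzyme genes were higher in NAc. Nos1 (ENSMUSG00000029361, chromosome 5, 117781032 to 117958840, plus strand), neuronal nitric oxide synthase, had medians of 35.4 CPM in PFC and 96.4 in NAc, higher by 1.45 ± 0.12 (SE) on the log2 scale (edgeR adjusted p = 5.96e-16). It shares exon bases with the antisense gene Gm26995, and whether the counting used strand was not given, so reads there cannot be told apart. Gad1 (ENSMUSG00000070880, chromosome 2, 70553072 to 70602014, plus strand), the decarboxylase found throughout the cell, ran from 289 to 475 CPM in PFC and from 644 to 952 in NAc, a log2 fold change of 0.97 ± 0.05 (SE; adjusted p = 1.07e-23, edgeR). Gad2 (ENSMUSG00000026787, chromosome 2, 22622205 to 22693874, plus strand), the decarboxylase of nerve terminals, ran from 47.7 to 305 CPM in PFC and from 613 to 1163 in NAc, a log2 fold change of 2.46 ± 0.09 (SE; adjusted p = 2.31e-29, edgeR). Neither decarboxylase overlapped between regions, and the share of all genes without overlap was not computed.

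**Figure D2:**
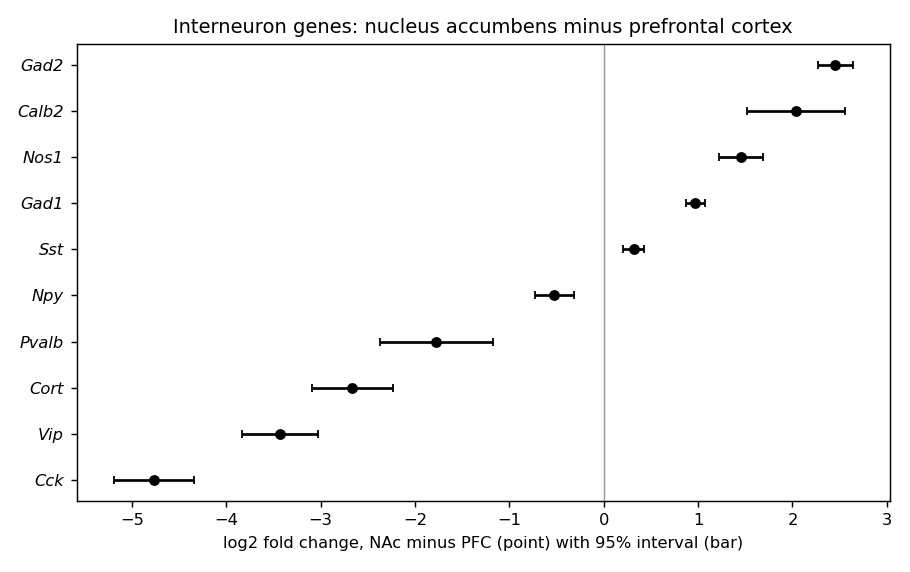
Difference of NAc from PFC for each of the 10 genes, as the log2 fold change (point) with its 95% interval (bar) on the horizontal axis, over 62 libraries. Points to the right of 0 are higher in NAc; Gad2 stands farthest right at 2.46 and Cck farthest left at -4.77.

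Ratios within a library describe the same region differences between partner genes. They were chosen after those differences were seen and carry no test. The log2 ratio of Gad2 to Gad1 ran from -3.18 to -0.49 over the PFC libraries (median -1.39, and lowest -1.77 without PFC library 10) and from -0.24 to 0.48 over the NAc libraries (median 0.13). These ranges did not overlap, and the difference of the means was 1.54. The ratio of Npy to Sst ran from -2.19 to -1.01 in PFC and from -3.48 to -1.82 in NAc, a difference of the means of -0.87. For Cort to Sst the medians were -5.30 in PFC and -8.41 in NAc, and the difference of the means was -2.78.

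Receptors for these peptides, a list of 13 genes, differed by region in 12 cases, 5 higher in NAc and 7 lower, beside the 66.2% called over all genes. Their median change was -0.75 on the log2 scale, and that of all genes 0.07. The examples given were chosen after their values were seen. Cckbr, the main cholecystokinin receptor of the brain, was lower in NAc like Cck itself, with medians of 86.2 CPM in PFC and 11.4 in NAc and a log2 fold change of -2.85 ± 0.09 (SE). Cckar, the other cholecystokinin receptor, was at 0 counts in 27 of 30 PFC libraries and had a median of 2.29 CPM in NAc. Among neuropeptide Y receptors, Npy1r was lower in NAc, at -1.33 ± 0.08 (SE, medians 27.9 and 10.6 CPM), while Npy2r was higher, at 3.5 ± 0.17 (SE, medians 2.57 and 35.5 CPM). The somatostatin receptors Sstr1, Sstr2, Sstr3 and Sstr4 were lower, at -0.75, -1.68, -2.32 and -1.57. Sstr5 went the other way, with 0 counts in 14 of 30 PFC libraries and a median of 2.50 CPM in NAc. Vipr1 was lower (-1.24 ± 0.16, SE) and Vipr2 higher (1.23 ± 0.34, SE). The receptor not called was Npy5r, at 0.18 ± 0.12 (SE, edgeR adjusted p = 0.188).

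Of 6 genes of GABA transport and breakdown, 5 were called by region, 4 of them higher in NAc, with a median log2 fold change of 0.53. These counts and those of the next lists also stand beside 66.2% over all genes. In examples also chosen after their values were seen, Slc32a1, which loads GABA into vesicles, was higher by 1.68 ± 0.05 (SE) on the log2 scale, and Abat, which breaks GABA down, by 1.05, while Slc6a13, a GABA transporter, was lower at -2.10. Of 8 genes of nitric oxide signalling, 6 were called, 3 in each direction, with a median of 0.20, a share near that background. Of 30 other interneuron genes, 29 were called, 17 higher and 12 lower in NAc, with a median of 0.33. Chodl, which marks the cells that hold Sst, Npy and Nos1 together, was higher by 4.0 ± 0.18 (SE), and the developmental regulators Dlx6, Dlx5 and Lhx6 were higher by 2.9, 2.25 and 1.26. Genes used to mark cortical interneuron classes went both ways. Satb1, Cplx3, Crhbp, Htr3a and Lamp5 were lower, at -3.25, -3.43, -1.71, -1.64 and -1.55, while Tac2, Sncg, Crh, Adarb2, Prox1 and Reln were higher, by 2.51, 1.80, 1.24, 1.01, 0.54 and 0.53.

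The next comparison asked whether any of the 10 genes differed from saline under chronic morphine, 24 h after it or 2 weeks after it. edgeR called 0 of 10 in each of the 6 contrasts. In PFC, 0.417% of 17966 genes were called under chronic morphine, 0.0779% at 24 h and 0.00557% at 2 weeks. In NAc, 1.69% of 18382 genes were called under chronic morphine, 0.163% at 24 h and 0.00544% at 2 weeks. At an unadjusted p under 0.05 there was 1 member under chronic morphine in PFC (Cort), 1 in NAc (Vip), 1 at 24 h in NAc (Calb2) and 0 in the other contrasts. The shares of all genes under that limit were 7.91%, 15.1% and 12% in those 3 contrasts, so 1 of 10 is near the background. DESeq2 also called 0 of 10 in each of the 6 contrasts. The test for any difference among treatments called 0 of 10 by edgeR in PFC (0.685% of all genes) and 0 in NAc (1.86%), where DESeq2 called 1, Vip, at an adjusted p of 0.0335. That DESeq2 test was a likelihood ratio test in another model, with sex and treatment additive, and it called 722 of 18382 genes in NAc. The 3 contrasts of a region share their saline libraries.

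The median log2 fold changes over the 10 genes, in which opposite signs cancel, were in PFC -0.07 under chronic morphine, -0.01 at 24 h and -0.05 at 2 weeks, beside 0.01, 0.01 and -0.05 over all genes. In NAc they were 0.01, 0.05 and -0.08, beside -0.01, -0.01 and 0.00. Regardless of sign, the median size under chronic morphine was 0.45 for the 10 genes and 0.15 for all genes in NAc, and 0.23 and 0.17 in PFC, and no test compared them. At 24 h it was 0.10 beside 0.14 in NAc and 0.03 beside 0.11 in PFC. The precision behind this differed between genes. In NAc the 95% intervals of Gad1, Gad2, Nos1 and Sst lay within 0.5 of 0 on the log2 scale at each stage, whereas that of Pvalb ran from -2.54 to 0.69 under chronic morphine. In PFC, intervals within 0.5 of 0 were had by Gad1, Npy and Vip under chronic morphine, by Sst, Vip, Cck, Gad1 and Gad2 at 24 h and by Sst, Npy, Pvalb and Gad1 at 2 weeks.

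**Figure D3:**
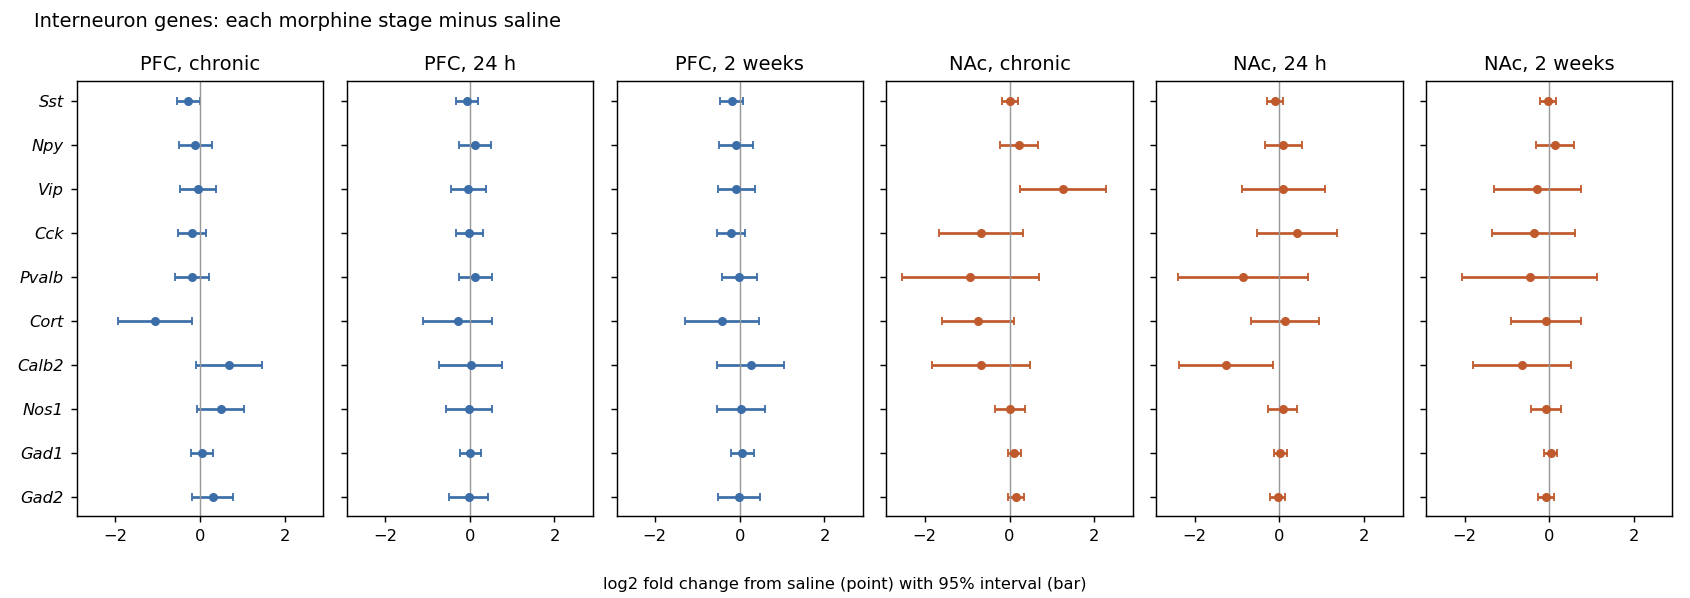
Difference from saline for each of the 10 genes, as the log2 fold change (point) with its 95% interval (bar) on the horizontal axis, for the 3 morphine stages in PFC (blue) and NAc (orange). Most intervals include 0; Vip (1.26) and Cort (-1.05) under chronic morphine and Calb2 (-1.26) at 24 h, which do not, had edgeR adjusted p-values of 0.206, 0.512 and 0.349.

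Sst in PFC ran from 7.34 to 7.89 log2 CPM with a median of 7.61 in saline libraries, and from 6.92 to 7.80 with a median of 7.37 under chronic morphine. At 24 h it ran from 7.12 to 8.21 (median 7.48), and at 2 weeks from 7.21 to 7.98 (median 7.28), the highest value being that of PFC library 10. The groups overlapped, and the log2 fold change under chronic morphine was -0.27 ± 0.13 (SE, edgeR adjusted p = 0.633). In NAc the 4 group medians of Sst lay between 7.73 and 7.84, and the 95% interval of its log2 fold change under chronic morphine was -0.19 to 0.19.

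Cort in PFC ran from 2.11 to 2.85 log2 CPM with a median of 2.32 in saline libraries and from -0.97 to 2.42 with a median of 1.49 under chronic morphine. At 24 h it ran from 0.88 to 3.13 (median 2.23), and at 2 weeks from -3.96, in PFC library 10, to 2.60 (median 2.21). Most chronic libraries lay below the lowest saline library and some lay within the saline range. The log2 fold change was -1.05 ± 0.42 (SE, edgeR adjusted p = 0.512), and it stayed between -1.40 and -0.82 when each library was left out in turn. Without PFC library 10 the edgeR adjusted p was 0.143. In NAc, Cort medians were -0.34 in saline libraries and -1.41 under chronic morphine, with a log2 fold change of -0.75 ± 0.41 (SE; adjusted p = 0.405, edgeR).

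Vip in NAc ran from 0.35 to 1.84 log2 CPM with a median of 1.34 in saline libraries, and from 0.75 to 3.88 with a median of 2.37 under chronic morphine. At 24 h it ran from -0.74 to 3.39 (median 1.21) and at 2 weeks from -0.77 to 1.70 (median 1.21). Some chronic libraries exceeded every saline library and others lay among them. Its log2 fold change under chronic morphine was 1.26 ± 0.50 (SE, 95% interval 0.24 to 2.28, edgeR adjusted p = 0.206), between 0.95 and 1.44 when each library was left out in turn. With levels of striatal, cortical and subcortical markers as covariates, chosen after seeing the data, it was 1.36. The highest value, 3.88, was in NAc library 28, which had the lowest summed cortical markers of the region, 6.10 CPM. NAc library 24, with the most cortical markers, 648 CPM, had the highest Vip of the 24 h group, 3.39. In PFC the 4 group medians of Vip lay between 5.07 and 5.16.

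Calb2 in NAc ran from 4.45 to 7.82 log2 CPM with a median of 6.4 in saline libraries and from 3.17 to 7.07 with a median of 5.60 at 24 h. Under chronic morphine it ran from 3.07 to 7.26 (median 5.40), and at 2 weeks from 3.53 to 6.57 (median 6.12). The groups overlapped over most of their ranges, and the log2 fold change at 24 h was -1.26 ± 0.54 (SE, edgeR adjusted p = 0.349). Leaving out NAc library 2 gave -0.57, and the 3 marker levels as covariates, chosen after seeing the data, gave -0.44. Slc17a6 is among those 3 and followed Calb2 closely in NAc. A smaller value was therefore likely whatever the cause, and it does not show what part the markers had. Median Slc17a6 was 51.1 CPM in saline NAc libraries, 19.1 under chronic morphine, 20.2 at 24 h and 54.8 at 2 weeks. Whether these levels bear on the Calb2 differences was not tested. In PFC the log2 fold change of Calb2 under chronic morphine was 0.69 ± 0.38 (SE, edgeR adjusted p = 0.711) and 0.18 with the marker covariates.

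In NAc the decarboxylases gave the tightest groups, with an SD about the group means of 0.14 log2 CPM for Gad1 and 0.17 for Gad2, whereas in PFC that of Gad1 was 0.24 and that of Gad2 0.49. In NAc, Gad1 medians were 9.52 log2 CPM for saline, 9.61 under chronic morphine, 9.51 at 24 h and 9.57 at 2 weeks, and its log2 fold change under chronic morphine had a 95% interval of -0.04 to 0.27. Gad2 medians there were 9.73, 9.84, 9.67 and 9.59 in the same order, with an interval of -0.03 to 0.33 under chronic morphine. In PFC, Gad2 had medians of 7.18, 7.39, 7.24 and 7.08, and Nos1 medians of 5.05, 5.22, 5.16 and 5.01. Npy medians in PFC ran from 5.95 to 6.13, and in NAc from 5.39 in saline to 5.89 under chronic morphine, with groups that overlapped. For Cck in NAc the medians lay between 2.92 and 3.35, and for Pvalb there between 2.68 and 3.88, where the chronic group ran from 0.95 to 6.49.

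Whether stage effects differed between regions was tested by interaction terms over all 62 libraries. edgeR called 0 of 10 members for chronic morphine (0.0311% of 19266 genes), 0 at 24 h (0.0208%), 0 at 2 weeks (0.00519%) and 0 for any stage (0.0363%). At an unadjusted p under 0.05 there was 1 for chronic morphine and 1 for any stage, Vip in both cases, and DESeq2 called 0 in the 3 single stages. For Vip, the chronic effect in NAc minus that in PFC was 1.31 ± 0.54 (SE, edgeR adjusted p = 1.0).

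Female and male libraries were compared within each region. edgeR called 0 of 10 in PFC (0.0334% of all genes) and 0 in NAc (0.0598%), with 0 at an unadjusted p under 0.05 in either region and 0 called by DESeq2. Without the libraries numbered 27 the edgeR counts were also 0. The test of sex by stage called 0 in PFC, where 0.0% of all genes were called, and 0 in NAc (0.0218%). At an unadjusted p under 0.05 it had 1 member in PFC, Calb2, and 0 in NAc, and DESeq2 was not run for it. The Calb2 difference between the sexes in the chronic effect was 2.88 ± 0.76 (SE, edgeR adjusted p = 0.475). It was 0.81 without PFC library 25 and 3.34 without PFC library 27 (edgeR adjusted p = 0.238).

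How the genes varied together was examined within each region, on deviations from the mean of libraries of the same treatment and sex. Over 30 PFC libraries, 20 of 45 gene pairs had an adjusted permutation p under 0.05, 12 positive and 8 negative, and over 32 NAc libraries 14 of 45 did, 9 positive and 5 negative. The 90 pairs were adjusted together, and libraries share depth and dissection. The share among pairs of other genes was not computed, so these counts are not shown to be particular to the 10 genes. In PFC the peptides Sst, Npy, Vip and Cck and the parvalbumin gene were positively related to each other in each of their 10 pairs. Npy and Cck had Pearson's r = 0.87 and Spearman's rho = 0.89 (permutation p = 1e-05, adjusted 3e-04), and r = 0.85 without the 2 libraries farthest from the median. Cck and Pvalb had r = 0.87 and rho = 0.81 (permutation p = 1e-05), and r = 0.85 without 2 libraries. Nos1 and Gad2 were positively related to each other, with r = 0.86 and rho = 0.78 (permutation p = 2e-05), and 0.80 without 2 libraries. Nos1 ran opposite to Vip, with r = -0.83 and rho = -0.79 (permutation p = 3e-05), and -0.74 without 2 libraries. Gad1 and Gad2 had r = 0.50 and rho = 0.67 (permutation p = 0.0158, adjusted 0.0417), and r = 0.78 without PFC library 10. Without that library 22 of the pairs in PFC were under the threshold when adjusted over those 45 alone, a smaller family.

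NAc showed fewer relations among the peptides. Sst and Npy were related, with r = 0.64 and rho = 0.64 (permutation p = 0.00015, adjusted 0.000964), and r = 0.66 without 2 libraries. In PFC the same pair had r = 0.77. Nos1, which shares a striatal class with both, had r = -0.28 with Sst in NAc (adjusted permutation p = 0.364). Npy and Cck, which were closely related in PFC, had r = -0.25 in NAc (adjusted permutation p = 0.432), and the difference between regions was not tested. Pvalb and Calb2 had r = 0.74 and rho = 0.74, and 0.68 without 2 libraries (adjusted permutation p = 0.000675). Cck and Nos1 had r = 0.72 and rho = 0.69, and 0.67 without 2 libraries (adjusted permutation p = 0.00045). Npy ran opposite to Calb2 (r = -0.62, rho = -0.58), Pvalb (r = -0.59) and Nos1 (r = -0.52). Gad1 and Gad2 had r = 0.67 and rho = 0.68, and 0.61 without 2 libraries. Sst and Cort, alike in their peptide, had r = 0.23 in NAc (adjusted permutation p = 0.422) and r = -0.22 in PFC (permutation p = 0.633), or 0.46 in PFC without library 10 (adjusted 0.175).

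**Figure D4:**
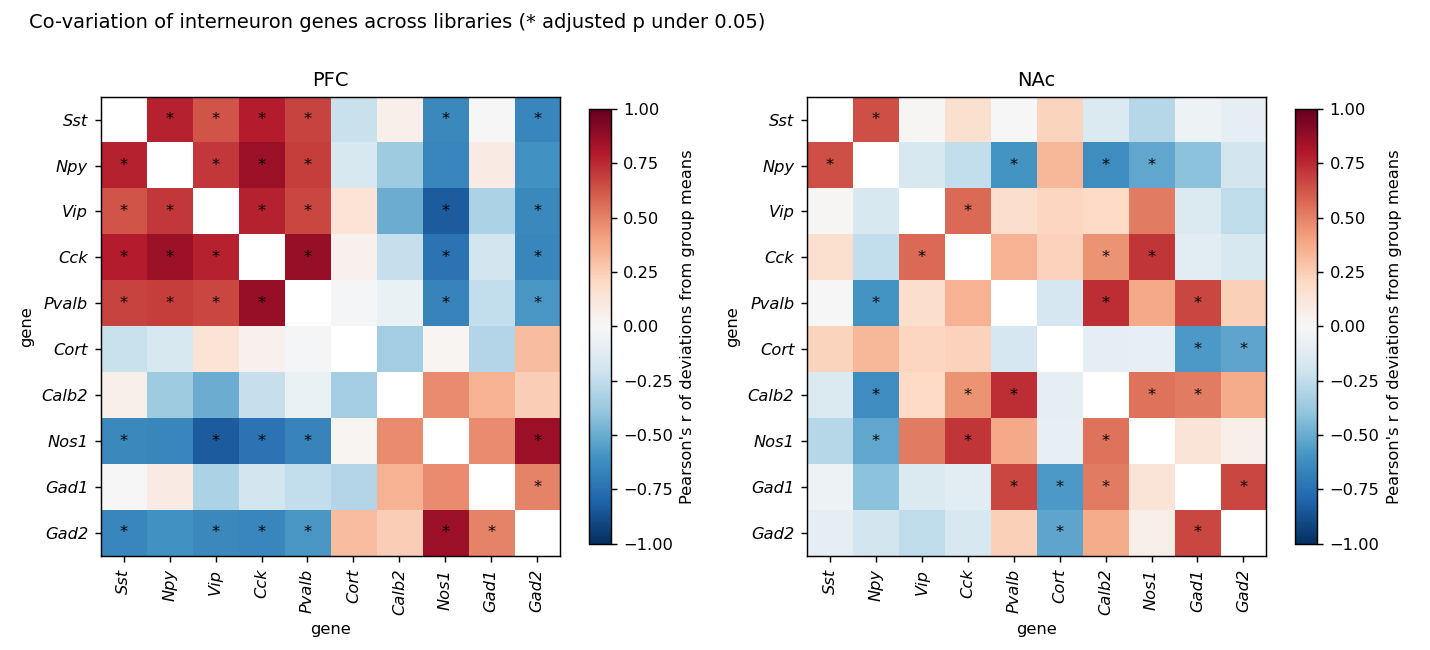
Pearson's r between each pair of the 10 genes across 30 PFC libraries (left) and 32 NAc libraries (right), computed on deviations from the mean of each treatment and sex; red is positive, blue negative, and asterisks mark an adjusted permutation p under 0.05. PFC has a block of positive values among Sst, Npy, Vip, Cck and Pvalb, and in NAc Sst is marked with Npy alone.

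Levels of several members in NAc moved with markers of other neurons. Of 120 relations of members with marker lists computed in each region, 15 in NAc and 3 in PFC had an adjusted permutation p under 0.05, the 240 being adjusted together. The share for genes outside the set was not computed. Calb2 followed Slc17a6, with r = 0.93 and rho = 0.93 (permutation p = 1e-05, adjusted 0.00048), and 0.93 without 2 libraries. It ran opposite to the striatal list, with r = -0.83 and rho = -0.88 (adjusted permutation p = 0.00048), and -0.85 without 2 libraries. Pvalb also followed Slc17a6 (r = 0.74, rho = 0.74, 0.70 without 2 libraries, adjusted permutation p = 0.0024). Npy followed the striatal list instead, with r = 0.76 and rho = 0.70 (permutation p = 0.00101, adjusted 0.0186), and 0.64 without 2 libraries. Cck followed the cortical list, with r = 0.87 and rho = 0.83 (adjusted permutation p = 0.00048), and 0.71 without 2 libraries. NAc library 24, with cortical markers at 648 CPM against a median of 21.6, was the highest for both Cck and Nos1. Vip had r = 0.40 with the cortical list and 0.13 with Slc17a6, and was related to none of the lists at an adjusted p under 0.05.

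In PFC the 3 relations were Npy with the cortical list (r = 0.71, rho = 0.60, adjusted permutation p = 0.0342) and both Nos1 and Gad2 with Slc17a6 (r = 0.77 and 0.72, adjusted permutation p = 0.0424 and 0.0384). The same relations by Spearman's rho had adjusted permutation p-values of 0.0684, 0.0963 and 0.076, and r without 2 libraries was 0.60, 0.63 and 0.68. Without PFC library 10, and adjusted over the 120 PFC relations alone, none was under the threshold, although r stayed at 0.74 for Npy with the cortical list. PFC library 25 had the lowest cortical markers of the region, 1699 CPM, the highest Slc17a6, 228 CPM, the highest Calb2 and the lowest Npy. The part of these marker levels in the region differences was not tested. For the stages, 0 of 10 members were called in each contrast both with the marker levels as covariates and without them. That count could not fall, so it does not show what part they had.

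**Figure D5:**
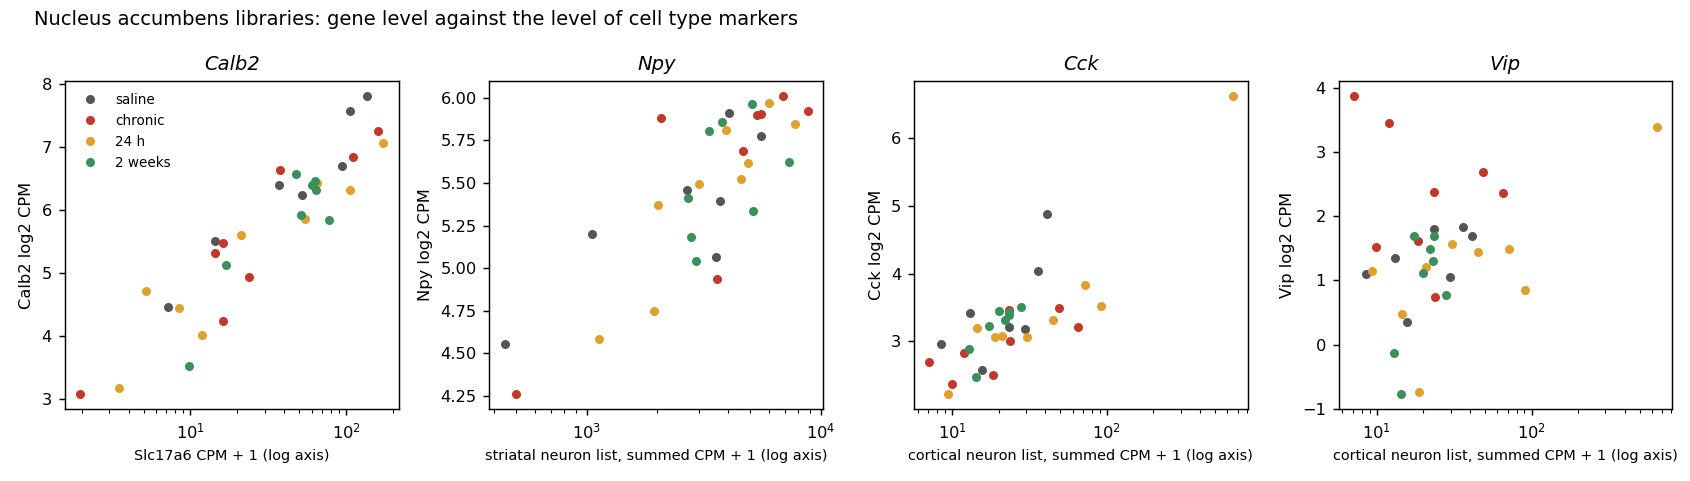
Level of Calb2, Npy, Cck and Vip in each of 32 NAc libraries (log2 CPM, vertical axes) against the level of Slc17a6, the striatal list or the cortical list (CPM + 1, horizontal log axes), coloured by treatment. Calb2 is higher where Slc17a6 is higher (r = 0.93), Cck has its highest point at the library with the most cortical markers, and Vip is high both at that library (3.39) and at the one with the fewest (3.88).

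Of the wider lists, 1 gene was called at a stage, a share near the 1.69% called over all genes in that contrast. Gucy1a2 (ENSMUSG00000041624, chromosome 9, 3532778 to 3894736, plus strand), a subunit of the guanylate cyclase that nitric oxide activates, rose in NAc under chronic morphine. It ran from 6.84 to 17.9 CPM in saline libraries (median 12.5) and from 16.9 to 28.9 CPM under chronic morphine (median 23.7), so the groups overlapped slightly. The log2 fold change was 0.89 ± 0.22 (SE, edgeR adjusted p = 0.0317), and leaving out each library in turn gave 0.78 to 0.99, with the call kept in 26 of 32 fits. Without the libraries numbered 27 the edgeR adjusted p was 0.0701. In NAc at 24 h its range was 17.4 to 23.8 CPM and the log2 fold change 0.72 ± 0.21 (SE, edgeR adjusted p = 0.171). In PFC, Gucy1a2 went from 6.96 to 14.2 CPM in saline libraries to 15.2 to 35.6 under chronic morphine, without overlap, and the log2 fold change of 1.17 ± 0.46 (SE) had an edgeR adjusted p of 0.493. The interaction between regions was -0.27 ± 0.50 (SE, edgeR adjusted p = 1.0). The other stage contrasts called 0 receptors, 0 genes of GABA handling, 0 other genes of nitric oxide signalling and 0 other interneuron genes.

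For each member up to 3 genes whose deviations followed it most closely in a region were named by the highest Pearson's r among tested genes with a mean of at least 1 log2 CPM. They are the best of many genes and carry no test. For Sst they were Ctxn1, Cyth2 and Stard10 in PFC (r = 0.87 to 0.89) and Ino80e, Mtch1 and Xab2 in NAc (0.74 to 0.76). Those for Npy were Sept5, Ctxn1 and Gabrd in PFC (0.87 to 0.89) and Fkbp1a, Wfs1 and 2900079G21Rik in NAc (0.90 to 0.91). For Vip they were Camk2n1, Mat2b and Tsnax in PFC (0.88 to 0.91) and Olfml2b, Rgs16 and Srcin1 in NAc (0.65 to 0.72). Cck was followed by Sult4a1, Psmb10 and 1110008P14Rik in PFC (0.89 to 0.91) and by Khdrbs3, Nptxr and Gpr22 in NAc (0.85 to 0.91). Cort was followed by Cited4 and Pdzph1 in PFC (0.91 to 0.92) and by 2410022M11Rik, Ppp1r16a and Cars2 in NAc (0.68 to 0.70).

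Pvalb in PFC went with Cox4i1, Cck and Psmb10 (0.86 to 0.88) and in NAc with Esrrg, Plekhd1 and Ubash3b (0.89 to 0.90). Calb2 went with Cygb, Ece2 and Pgm1 in PFC (0.86 to 0.88) and with Resp18, Ankrd55 and Podxl2 in NAc, each at 0.98, the closest match of any member. For Nos1 the genes were Kif26b, Srgap1 and Disp2 in PFC (0.88 to 0.91) and Homer2, Clstn2 and Rap1gap2 in NAc (0.89 to 0.92). Gad1 had Nsf, Grm4 and Nipal3 in PFC (0.84 to 0.88) and Bcam, Brox and Nectin4 in NAc (0.79 to 0.80). Gad2 had Slc8a3 and Cacna2d2 in PFC (0.92 to 0.93) and Ube3a, Pcm1 and Cpeb2 in NAc (0.77 to 0.83). Without PFC library 10 the PFC sets changed. Of the 3 nearest genes, 0 were shared for Cort and Gad2, which were then headed by Rbp4 (0.75) and Grin3a (0.92). For Sst (Stard10), Npy (Sept5), Cck (Sult4a1), Pvalb (Cox4i1) and Calb2 (Cygb) 1 was shared. Vip (Camk2n1 and Mat2b), Nos1 (Kif26b and Srgap1) and Gad1 (Nsf and Grm4) shared 2. No gene was among the 3 nearest of the same member in both regions.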

How the data were processed

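For the mice, the table deposited by the authors holds whole-number counts, not normalized, for 62 libraries made from tissue punches, total RNA and read pairs of 75 bases, per the labels' protocols. The submitters' processing notes name FastQC, cutadapt, STAR, RSEM, Trimmomatic and HISAT2 without roles and the build GRCm38 for mouse. The 5 kinds of reads given to no gene (median shares of 5.43% outside genes, 0.832% ambiguous, 0.334% of low quality, 0.566% unaligned and 14.7% not unique) and 2 reporter sequences stayed out of all totals. Rat libraries were not used here.

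Counts were tested with edgeR 4.0.16 (R 4.3.3, limma 3.58.1): TMM scaling, genes filtered on the treatment by sex groups, and a quasi-likelihood test averaged over the sexes, with Benjamini-Hochberg adjustment over all genes tested and calls under 0.05. Log2 CPM used a prior count of 2, and CPM were scaled by the same TMM factors. The fold changes come from the fit. Permutations of values between libraries of the same treatment and sex gave the correlation p-values. In simulated counts for the chronic contrast, 26 of 100 genes changed by 0.5 on the log2 scale and 81 of 100 changed by 1 were called in PFC, and 61 and 90 in NAc. The changed genes were drawn at random from those with a mean of at least 1 log2 CPM, which Cort in NAc (mean -0.72) does not reach. Members with a wide spread in NAc, such as Pvalb (SD about the group means 1.61), need not have these rates. Alternatives were DESeq2 1.42.0, other size factors, no filter, no sex term, marker covariates, and leaving out libraries. The genes and lists were chosen with earlier results of these data known. Genes of the lists are named where a stage contrast called them, besides the 3 nearest genes of each member, a few of which are not reported here.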

Additional observations from a re-analysis of the deposited data

Results flagged for a closer look

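In 7 of the 80 combinations of a gene and a group, the highest or lowest library stood apart from the rest by Dixon's criterion, where chance gives about 1 in 20. PFC library 10 (2 weeks), the shallow one, had the highest Sst of its group, 7.98 log2 CPM against 7.39 for the next, and the lowest Cort, -3.96 against 1.80. PFC library 20 (24 h) had the highest Sst, 8.21 against 7.59. PFC library 25 (chronic morphine) had the lowest Npy, 4.73 against 5.89, and the highest Calb2, 6.77 against 4.05; its Slc17a6 was 228 CPM. NAc library 24 (24 h) had the highest Cck, 6.62 against 3.83, and the highest Nos1, 7.58 against 6.91, beside cortical markers of 648 CPM.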

How the results depend on the processing

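Counts of called members were 0 in each stage, sex and interaction contrast under every setting run, except that DESeq2 called 1 in NAc for any difference among treatments (Vip). With each library left out in turn they stayed at 0 to 0, and for the region difference at 10 to 10; over saline libraries alone the region count was 7 to 8. With the replicate number as a block over 30 same-numbered pairs, 10 of 10 members were called by region and 0 for the interactions; the labels do not say that a number is an animal, and deviations of same-numbered libraries correlated at -0.04 to 0.29 (median 0.12, above 0.1 in 19 of 30), where 88 other pairs had a median of -0.04. The call of Gucy1a2 in NAc was lost without the low-count filter (adjusted p = 0.0606) and without each of 6 libraries (up to 0.108). Shares called over all genes moved more: under chronic morphine 0.417% in PFC became 0.963% with DESeq2 and 0.89% without PFC library 10, and 1.69% in NAc became 3.76% with DESeq2, 0.881% without a sex term, 0.62% without the libraries numbered 27, 0.694% without the filter, 3.53% with the striatal score and 5.17% with 3 marker covariates. The causes were not tested. Depth limits Cort most, with 0 counts in PFC library 10.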
